A study of Mus musculus with 4 samples.

Results

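The coagulation and complement factors are a set of 38 plasma protein genes, taken from a list of gene names. Of these, 19 are of the clotting, fibrinolytic and kinin systems and 19 of complement. The list was chosen with earlier results of these data known. The genes were read in liver RNA of 4 wild-type C57/BL6 mice, aged 1 month, on an Affymetrix array. In the control group were 2 mice, and in the other group 2 mice starved for 24 h. No group carried a transgene, a deletion or an agent that the labels name, although the description field calls the starved animals injected and the controls not injected, a point the labels do not settle. Each mouse gave 1 array, and the labels call the samples of a group biological replicates. The array named 36 of the 38 genes, out of 12393 genes in all. No probe set was matched to C3 here, and the probe set of C4b is annotated to more than 1 gene, so neither is reported. C1s was read under its current mouse symbol, C1s1. Each gene is represented by its probe set with the highest mean over the 4 arrays.

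Clotting factors circulate as inactive precursors. A chain of proteases (factors VII, IX, X, XI and XII), with factor V as a cofactor, ends in thrombin, made from F2, which cuts fibrinogen into fibrin. Antithrombin, heparin cofactor II and the protein C system hold that chain in check, and plasmin dissolves the clot. Complement is a parallel protease system of innate immunity: it is started by the C1 complex on antibody, by mannose-binding lectins on sugars, or directly, passes through the C3 convertases and ends in the pore of C6, C8 and C9 with other terminal components. Most of these proteins are made by hepatocytes, whereas C1q comes mainly from macrophages, in liver the Kupffer cells. Fibrinogen and several complement proteins are known positive acute phase genes, which interleukin-6 and interleukin-1 induce.

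Signals are log2 values from the RMA procedure, and a log2 change is the mean of the starved arrays less that of the controls. Across the 36 genes the signals lay between 8.58 and 14.72. The hepatocyte origin of the RNA was checked on 12 measured hepatocyte markers (of 15 listed), whose changes ran from -0.23 to 0.24 and whose summed level was 18.29 and 18.19 on control 1 and control 2 and 18.27 and 18.24 on starved 1 and starved 2 (log2 of the summed signals). The 2 control arrays were not alike: all 24 measured acute phase genes were higher on control 2 than on control 1, by a median of 0.75. Their summed level was 17.58 on control 1, 18.44 on control 2, 17.55 on starved 1 and 17.57 on starved 2. By this sum control 2 stood apart from the other 3 arrays. Single genes could differ: in Mt1 and Mt2 control 1 was the array apart. Mt1 read 10.29 on control 1 and 13.76, 13.85 and 13.61 on control 2, starved 1 and starved 2. For Mt2 these values were 9.09 and 13.54, 12.97 and 12.82. The set, its 2 systems and the genes whose value leaned on a control array are therefore also given against each control apart. In liver pieces, fewer cells of a type and less RNA per cell cannot be told apart.

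Most of the set was slightly lower in starved liver. The starved mean was below the control mean for 30 of the 36 genes, where 49.1% of all genes tested were lower, and the median log2 change was -0.24 against 0.00 over all genes. Against control 1 alone 29 of the 36 were lower, beside 6500 of all 12393 genes. Against control 2 alone 27 were lower, beside 5718 of all genes. The changes ran from -0.78 for F11 to 0.25 for F5. Their median size, leaving the sign aside, was 0.25, beside 0.13 over all genes. A size of 1 log2 unit was exceeded by 0 of the 36 and by 161 of all 12393 genes. In limma 0 of the 36 passed an adjusted p of 0.05, where 0.0646% of all genes did, and the smallest adjusted p among the 36 was 0.211. On simulated data limma recovered 0.9% of changes of 0.5 log2 units. That size was exceeded by 3 of the 36 genes and by 795 of all 12393. A gene that did not pass is therefore not shown to be unchanged. At an unadjusted p under 0.05, limma gave 10 lower and 0 higher, where the shares over all genes were 6.02% lower and 5.25% higher. The 10 were Fga, Fgb, F7, F10, F11, Serpind1, Serpinf2, Mbl2, C6 and C8a. None of the changes described here passed the test across all genes, and the words lower and higher give the side of the mean.

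Both starved arrays lay below both control arrays in 23 of the 36 genes and above them in 2, F5 and F9, where 20.9% and 21.4% of all genes were apart in these directions. The 23 include Masp2, whose other probe set was apart in the opposite direction. In 17 genes the drop in mean was also larger than the gap between the controls and the gap between the starved arrays, against 15.0% of all genes. The widest gap between the control arrays was 0.68, in C1qb, and that between the starved arrays was 0.58, in F11. The count of 10 genes at an unadjusted p under 0.05 in limma leaned on the arrays. Leaving out control 1 gave 9 and leaving out control 2 gave 3, where 6.02% and 5.49% of all genes were lower at that p. The count was 4 with starved 1 left out and 5 with starved 2 left out, beside 3.52% and 4.62% of all genes.

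**Figure D1:**
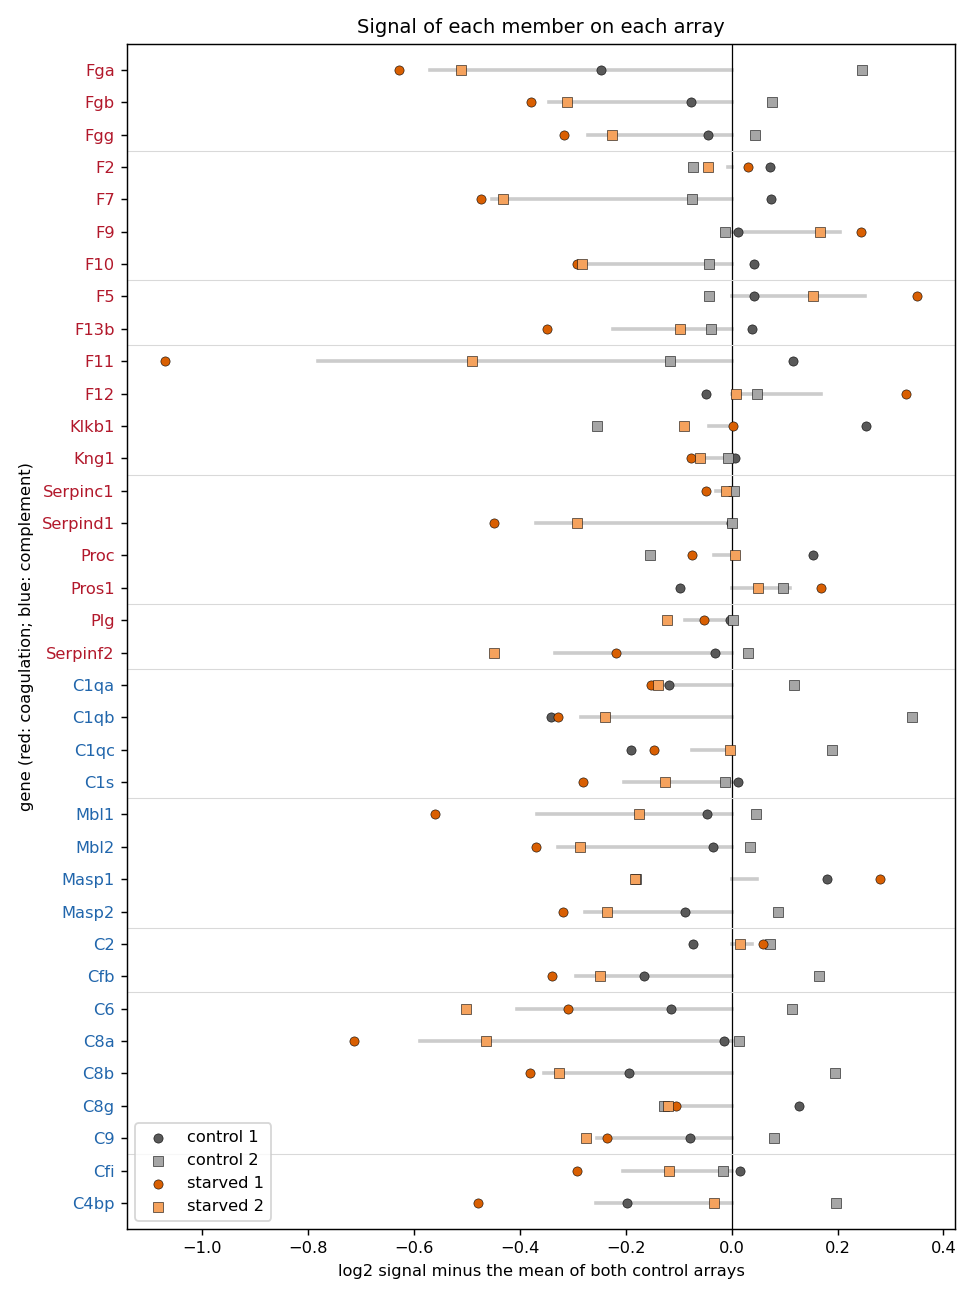
Log2 signal of each of the 36 genes on each array (x axis, minus the mean of the 2 control arrays), ordered by role, with gene names in red for coagulation and blue for complement. Circles and squares are single arrays and the grey bar runs from the control mean to the starved mean. In 23 genes both orange points lie left of both grey points.

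The 3 chains of fibrinogen, the clot's structural protein, were lower together. Fga, the alpha chain, read 13.63 on control 1 and 14.13 on control 2, against 13.25 on starved 1 and 13.37 on starved 2. Fgb, the beta chain, read 14.51 and 14.67 on the controls and 14.21 and 14.28 on the starved arrays. Fgg, the gamma chain, read 14.63 and 14.72 against 14.36 and 14.45. In each chain the groups did not overlap, and in each control 2 was the highest of the 4 arrays. The log2 changes were -0.57 ± 0.19 (SE) for Fga, -0.34 ± 0.12 for Fgb and -0.27 ± 0.12 for Fgg, with limma adjusted p of 0.357, 0.390 and 0.462. The Fga change depended on the control array: it was -0.32 against control 1 and -0.82 against control 2. For Fgb these values were -0.27 and -0.42, and for Fgg -0.23 and -0.32, so all 3 chains were lower against either control.

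The fibrinogen genes lie next to each other in the order Fgg, Fga, Fgb in RefSeq's mouse assembly GRCm38.p6, with 0 other protein-coding genes between them. The 250 bases before each start site are shown because the chains were lower together and are known interleukin-6 targets. They are from RefSeq and are given 5′ to 3′ on the gene's strand. Capitals mark matches, on either strand, to TTGCNNAA (C/EBP), TTCNNNGAA (STAT) or CTGGGAA (the interleukin-6 type 2 element).
Fga, chr3:83025903-83026152, plus strand: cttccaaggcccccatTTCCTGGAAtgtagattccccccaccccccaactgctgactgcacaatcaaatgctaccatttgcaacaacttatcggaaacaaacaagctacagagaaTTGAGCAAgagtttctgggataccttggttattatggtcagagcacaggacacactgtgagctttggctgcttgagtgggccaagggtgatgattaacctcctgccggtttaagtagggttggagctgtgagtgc
Fgb, chr3:83049864-83050113, minus strand: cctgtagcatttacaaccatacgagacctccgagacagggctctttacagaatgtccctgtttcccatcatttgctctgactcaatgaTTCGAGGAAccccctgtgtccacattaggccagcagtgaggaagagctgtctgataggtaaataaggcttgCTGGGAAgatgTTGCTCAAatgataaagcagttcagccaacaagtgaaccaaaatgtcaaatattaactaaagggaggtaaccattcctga
Fgg, chr3:83007474-83007723, plus strand: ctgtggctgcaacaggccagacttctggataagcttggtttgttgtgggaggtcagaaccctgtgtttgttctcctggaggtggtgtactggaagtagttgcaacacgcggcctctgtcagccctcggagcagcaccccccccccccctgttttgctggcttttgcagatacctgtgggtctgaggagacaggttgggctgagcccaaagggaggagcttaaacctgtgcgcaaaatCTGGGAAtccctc
Counted from the start site, the Fga window held a STAT match that begins at -234 and a C/EBP match at -135. The Fgb window held a STAT match at -162, the interleukin-6 type 2 letters at -91 and a C/EBP match at -80. The Fgg window held the interleukin-6 type 2 letters at -13. Of 32851 RefSeq promoter windows of 250 bases, 9.56% held the C/EBP letters, 7.02% the STAT letters and 9.10% the interleukin-6 type 2 letters. Windows were found for 28 of the 36 genes (30 windows), of which 7 genes held the first, 6 the second and 4 the third. The C/EBP letters were in C1s, C9, F11, F9, Fga, Fgb and Klkb1, the STAT letters in C8a, F9, Fga, Fgb, Masp2 and Pros1, and the interleukin-6 type 2 letters in F9, Fgb, Fgg and Masp2. In F9, the factor IX gene, the STAT and interleukin-6 type 2 matches overlapped, both beginning at -82. Searched likewise, TATAAA was in Klkb1 and in 12.4% of windows, and an HNF1 motif in C4bp and F13b and in 0.371% of windows. CAAAGTCC (HNF4) and an NF-kB motif were in 0 of the 28 genes and in 1.20% and 1.41% of windows. A match describes letters and not a bound site.

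The vitamin K-dependent proteases did not share a direction. F7, which starts clotting on tissue factor, read 11.23 and 11.08 on the controls and 10.69 and 10.73 on the starved arrays, a log2 change of -0.45 ± 0.12 (SE) with an adjusted p of 0.274 in limma. F10, which makes the prothrombin-cleaving enzyme, read 12.42 and 12.34 against 12.09 and 12.10, a change of -0.29 ± 0.11. On the probe sets used, the starved arrays of both genes lay within 0.04 of each other and below both controls. The other probe sets of F10 were less even. One read 9.62 and 9.67 against 9.74 and 9.27, a change of -0.14 with overlapping groups. Another read 9.17 and 9.29 against 9.13 and 8.73, a change of -0.29. F7 and F10 are direct neighbours in GRCm38.p6. F2, the prothrombin gene, had 14.11 and 13.96 against 14.07 and 13.99, a change of -0.01 with a 95% interval of -0.30 to 0.29, or -0.08 against control 1 and 0.07 against control 2. Here the starved arrays sat between the controls. F9, which acts with factor VIII, read 12.18 and 12.16 on the controls and 12.41 and 12.34 on the starved arrays, a change of 0.20 (95% interval -0.07 to 0.48), and was higher against either control.

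The cofactor and the fibrin cross-linking subunit went opposite ways. F5, the cofactor of factor X, read 12.29 and 12.21 on the controls and 12.60 and 12.40 on the starved arrays, a change of 0.25 ± 0.13 (SE), 1.19-fold higher. Its second probe set gave a change of 0.19. F13b, the carrier subunit of the cross-linking factor XIII, read 12.14 and 12.06 on the controls, 11.75 on starved 1 and 0.25 more than that on starved 2, a change of -0.22 ± 0.13. The groups were apart in both genes, and starved 2 was the starved array nearer to the controls in each. Neither gene passed the limma test (adjusted p = 0.521 and 0.595).

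F11 had the lowest change of the whole set. The factor XI gene, a protease that thrombin and factor XII activate, read 10.56 and 10.33 on the controls and 9.37 and 9.95 on the starved arrays. The log2 change, 1.72-fold lower, was -0.78 (95% interval -1.31 to -0.25), with a limma adjusted p of 0.286. The starved arrays were both low but unequal, with starved 1 the lower. Klkb1, the prekallikrein gene next to F11 in GRCm38.p6, read 12.37 and 11.86 on the controls and 12.12 and 12.02 on the starved arrays, a change of -0.04 that was -0.30 against control 1 and 0.21 against control 2. The neighbours thus gave different values. F12, the contact factor, read 11.83 and 11.93 against 12.21 and 11.89, a change of 0.17 in which starved 2 lay between the controls. Kng1, the kininogen gene, changed by -0.07 on its brightest probe set (13.94 and 13.93 against 13.86 and 13.88) and by -0.26 on the other.

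The window before F11 is shown with that of C8a, since these 2 genes had the largest changes of their systems. Each carries 1 of the letters searched, a C/EBP match at -17 in F11, on the opposite strand, and a STAT match at -228 in C8a.
F11, chr8:45262032-45262281, minus strand: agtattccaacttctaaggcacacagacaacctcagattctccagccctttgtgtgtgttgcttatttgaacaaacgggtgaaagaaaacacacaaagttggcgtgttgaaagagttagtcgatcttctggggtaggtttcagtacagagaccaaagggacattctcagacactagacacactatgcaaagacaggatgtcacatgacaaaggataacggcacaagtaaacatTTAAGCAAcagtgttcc
C8a, chr4:104876399-104876648, minus strand: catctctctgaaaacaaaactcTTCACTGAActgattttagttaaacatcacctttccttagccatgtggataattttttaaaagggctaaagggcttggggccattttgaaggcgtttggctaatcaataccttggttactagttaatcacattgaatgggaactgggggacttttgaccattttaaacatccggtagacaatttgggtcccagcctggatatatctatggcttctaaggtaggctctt

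Of the natural anticoagulants, Serpind1 had the lowest change. This heparin cofactor II gene read 12.58 on both control arrays and 12.13 and 12.29 on the starved arrays, a change of -0.37 ± 0.12 (SE) with an adjusted p of 0.353 in limma. Pros1, the protein S gene, read 9.52 and 9.71 against 9.78 and 9.66, a change of 0.11 with overlapping groups, or 0.21 against control 1 and 0.01 against control 2. Serpinc1, the antithrombin gene, and Proc, the protein C gene, had changes of -0.03 (95% intervals -0.30 to 0.24 and -0.39 to 0.32). Serpinc1 signals spanned 14.37 to 14.42 over the 4 arrays, and its groups were apart within that span, as were those of Serpind1. Proc was 13.18 on control 1 and 12.87 on control 2, with the starved arrays between them, so that its change was -0.19 against the first and 0.12 against the second. In fibrinolysis, Plg, the plasminogen gene, read 14.26 on both controls and 14.20 and 14.13 on the starved arrays, a change of -0.09 ± 0.11. Serpinf2, which encodes the plasmin inhibitor alpha 2-antiplasmin, read 12.75 and 12.82 against 12.57 and 12.34, a change of -0.33 ± 0.13 (adjusted p = 0.437, limma). The groups were apart in both genes, and each change exceeded the gaps between arrays of a group.

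**Figure D2:**
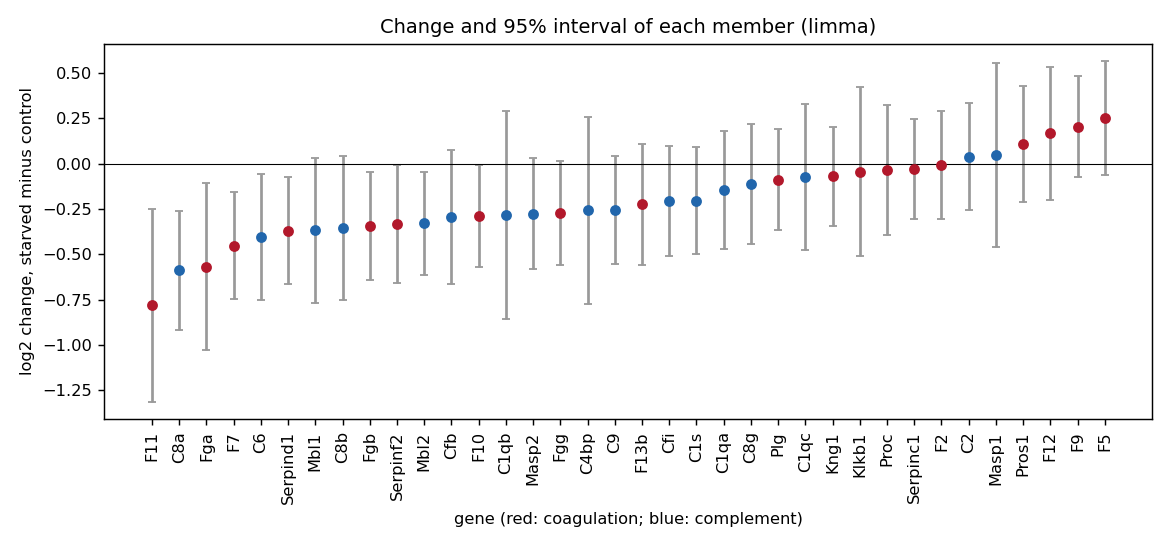
Log2 change (y axis, starved mean minus control mean) of the 36 genes in ascending order, with 95% intervals from limma as bars. Points are red for coagulation and blue for complement. The interval lies below 0 for 10 genes and includes 0 for the other 26.

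Of the membrane attack pore, C8a and C6 had the lowest changes among the complement genes. C8a, the alpha subunit of C8, read 13.72 and 13.75 on the controls and 13.03 and 13.28 on the starved arrays. The log2 change was -0.59 (95% interval -0.92 to -0.26), with the smallest adjusted p of the set (0.211, limma). The controls agreed within 0.03, and the change was -0.57 against control 1 and -0.60 against control 2. C6, which joins the pore after C5 is cut, read 11.52 and 11.75 against 11.33 and 11.13, a change of -0.40 ± 0.14 (SE). C8b, the neighbour of C8a in GRCm38.p6, read 11.87 and 12.26 against 11.68 and 11.74. Its change of -0.35 was -0.16 against control 1 and -0.55 against control 2. C9, which forms the ring of the pore, changed by -0.25 and C8g, the gamma subunit, by -0.11. Of the 5 pore genes, C8g was the one with overlapping groups, at 13.70 and 13.45 on the controls and 13.47 and 13.45 on the starved arrays. Its change was -0.24 against control 1 and 0.02 against control 2.

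In the lectin pathway the recognition proteins gave like values. Mbl2, the C form of mannose-binding lectin, read 13.14 and 13.21 on the controls and 12.80 and 12.89 on the starved arrays, a change of -0.33 ± 0.11 (SE, limma adjusted p = 0.390). Mbl1, the A form, read 12.39 and 12.49 against 11.88 and 12.27, a change of -0.37 ± 0.16. Both were lower against either control. Their proteases depended on the probe set. Masp2, which cuts C4 and C2, changed by -0.28 on its brightest probe set and by 0.30 on the other, with the groups apart in opposite directions (10.67 and 10.85 against 10.44 and 10.53, and 9.82 and 9.91 against 10.20 and 10.14). Masp1, which activates Masp2, changed by 0.05 on its brightest probe set, with arrays at 11.38, 11.01, 11.47 and 11.01 in the order control 1, control 2, starved 1 and starved 2. Its 4 other probe sets changed by -0.34 to -0.18. No direction is given for either protease.

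**Figure D3:**
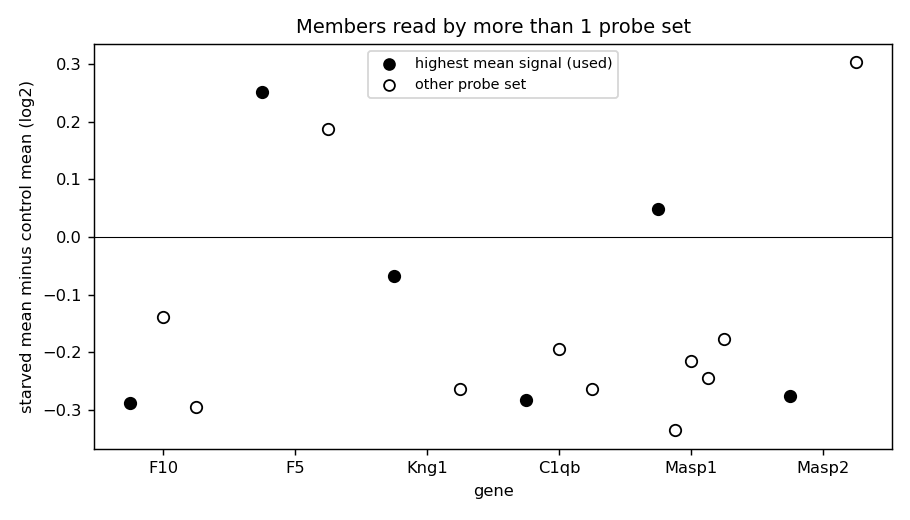
Log2 change (y axis, starved mean minus control mean) on each probe set of the 6 genes with more than 1. Filled points are the probe sets with the highest mean signal, used for the gene, and open points the others. Probe sets of F10, F5, Kng1 and C1qb share a side of 0, whereas those of Masp1 and Masp2 do not.

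In the C1 complex, the groups were apart in C1s and C1qa and overlapped in C1qb and C1qc. C1s, the protease subunit that hepatocytes make, read 12.09 and 12.06 on the controls and 11.79 and 11.95 on the starved arrays, a change of -0.20 ± 0.12 (SE), from an _s_at probe set that may also read related transcripts. C1qb, a chain of the recognition protein C1q, read 9.26 on control 1, 9.94 on control 2, 9.27 on starved 1 and 9.36 on starved 2. Control 2 was thus the array that was high, and the change of -0.28 became 0.06 against control 1 and -0.62 against control 2. C1qc had the same array order, with a change of -0.08 that was 0.11 against control 1 and -0.26 against control 2. C1qa read 9.35 and 9.58 on the controls and 9.31 and 9.33 on the starved arrays. Its change was -0.15, or -0.03 against control 1 and -0.26 against control 2. The 3 genes are direct neighbours in GRCm38.p6. Beside them, 17 of 19 measured Kupffer cell and macrophage markers (of 20 listed) were higher on control 2 than on control 1, by a median of 0.18. The summed level of these markers was 13.98 on control 1, 14.31 on control 2, 13.97 on starved 1 and 14.09 on starved 2. Starved 2 was likewise above starved 1 in 17 of these 19 markers, also by a median of 0.18. The part of macrophage RNA in the C1q values was not tested.

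Of the convertase genes, Cfb, the protease of the alternative pathway, read 12.48 and 12.81 on the controls and 12.31 and 12.40 on the starved arrays, a change of -0.29 ± 0.15 (SE) that was -0.13 against control 1 and -0.46 against control 2. C2, its counterpart in the classical and lectin pathways and its neighbour in GRCm38.p6, read 10.17 and 10.32 against 10.30 and 10.26, a change of 0.04 (95% interval -0.26 to 0.33), or 0.11 against control 1 and -0.03 against control 2. The starved arrays lay below both controls in Cfb and between them in C2. Of the inhibitors, Cfi, the protease that inactivates C3b and C4b, read 13.97 and 13.94 against 13.66 and 13.84, a change of -0.21 ± 0.12. C4bp, its cofactor, read 13.09 and 13.48 against 12.80 and 13.25, with overlapping groups and a change of -0.26 ± 0.21, or -0.06 against control 1 and -0.45 against control 2. Starved 2 was the higher starved array in both inhibitors.

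Set side by side, 15 of 19 coagulation genes and 15 of 17 complement genes had a lower starved mean, beside 49.1% of all genes. The groups were apart with starved lower in 12 and 11 of them, beside 20.9% of all genes. Masp2, with probe sets in opposite directions, is among the 11. The median change was -0.09 for coagulation and -0.26 for complement. Which system was lower depended on the control array. Against control 1 the medians were -0.23 for coagulation and -0.18 for complement, and against control 2 they were -0.09 and -0.36. Control 2 was above control 1 in 13 of 17 complement genes (median difference 0.16) and in 9 of 19 coagulation genes (median -0.01). Over all genes control 2 was above control 1 in 5464 of 12393 (median -0.03). Among the complement genes higher on control 2 were C1qb by 0.68, C4bp by 0.40, C8b by 0.39, C1qc by 0.38 and Cfb by 0.33, and among the coagulation genes Fga by 0.49. Genes lower on control 2 were found in both systems, with control 2 minus control 1 at -0.51 for Klkb1, -0.36 for Masp1, -0.31 for Proc and -0.26 for C8g. The complement median lay below 0 in each of the 4 pairs of a starved with a control array, from -0.40 to -0.13, as did that of coagulation, from -0.23 to -0.06. The difference between the systems has no test here, and the part of the acute phase state of control 2 in it was not tested.

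**Figure D4:**
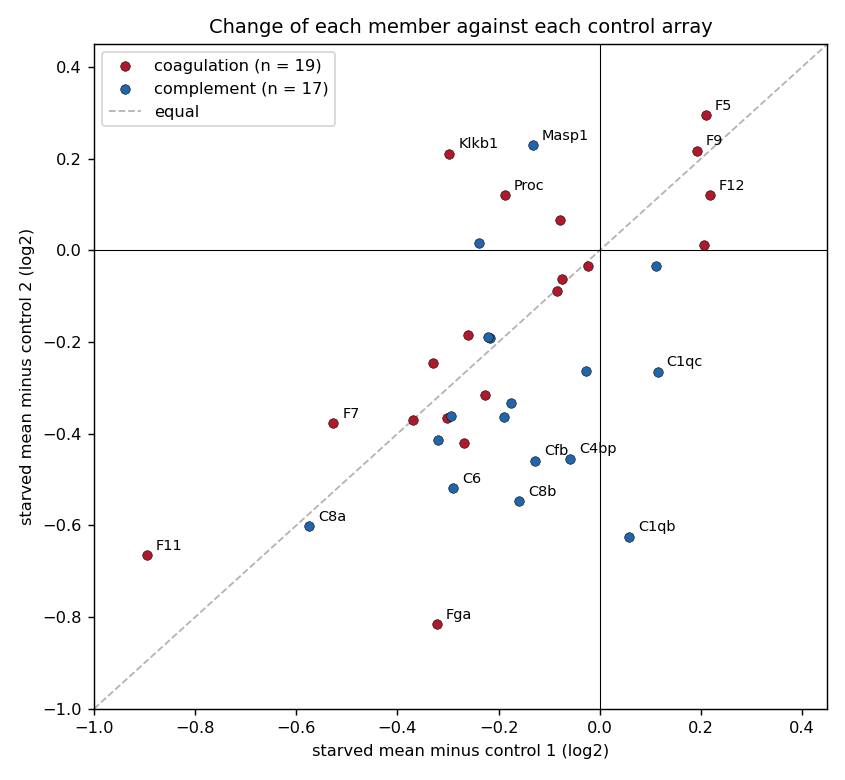
Starved mean minus control 1 (x axis) against starved mean minus control 2 (y axis), in log2 units, for 19 coagulation genes in red and 17 complement genes in blue. Points below the dashed line of equality are lower against control 2, as for Fga, C1qb, C8b, C4bp and Cfb, and C8a lies close to the line.

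Acute phase genes show how far the control arrays differed in related liver products. By the sign of the change 21 of 24 acute phase genes were lower in starved liver, beside 49.1% of all genes. Their median was -0.54, or -0.06 against control 1 and -0.91 against control 2. Beside it, the coagulation and complement medians against control 1 were -0.23 and -0.18. The 24 acute phase genes include none of the 36. Sinusoidal and vascular endothelial markers differed between the controls the other way, with 2 of 18 higher on control 2 and a median difference of -0.65. Hepatocyte markers had 1 of 12 higher and a median of -0.09. Starved 2 was above starved 1 in 2 of the 18 endothelial markers (median -0.22) and in 7 of the 12 hepatocyte markers (median 0.006).

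**Figure D5:**
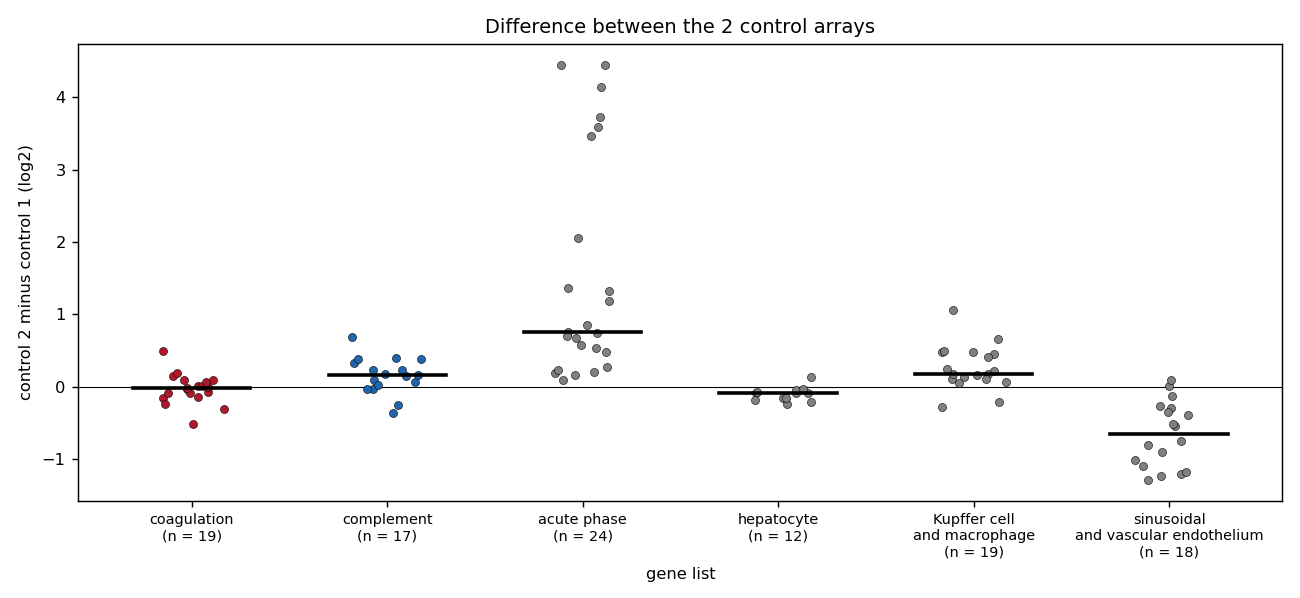
Control 2 minus control 1 (y axis, log2) for each gene of 6 lists, with the median as a black line and sideways scatter only for legibility. Acute phase genes all lie above 0, reaching 4.45, complement genes have a median of 0.16 and coagulation genes of -0.01.

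Other genes of clotting and fibrinolysis were mostly lower too. Of 35 other coagulation and fibrinolysis genes listed, 29 were measured. Of these, 20 (69.0%) had a lower starved mean, beside 49.1% of all genes. The median change of the 29 was -0.12, or -0.16 against control 1 and -0.06 against control 2. In limma 0 passed across all genes, and 4 were lower and 1 higher at an unadjusted p under 0.05, beside 6.02% and 5.25% of all genes. The higher gene was Mug1, a murinoglobulin protease inhibitor, with a change of 0.30 and the groups apart, named after its values were seen. Ggcx, the carboxylase that completes the vitamin K-dependent factors, read 8.27 and 8.57 on the controls and 7.48 and 7.74 on the starved arrays, a log2 change of -0.81 ± 0.16 (SE, adjusted p = 0.176). Serpina10, the protein Z-dependent inhibitor of factor X, had a change of -0.94 ± 0.24 from an _s_at probe set, and Tfpi2, a Kunitz-type protease inhibitor, one of -0.75 ± 0.15. F13a1, the catalytic subunit of factor XIII, had a change of -0.44 at low signals of 4.41 to 5.03. In these 4 lower genes, which were picked by their p, both starved arrays lay below both controls. Among the 29 measured genes the groups were apart in 9 with starved lower and in 3 with starved higher. The shares over all genes were 20.9% and 21.4%.

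On the complement side, 23 of 36 other genes listed were measured. Of these, 13 (56.5%) were lower, beside 49.1% of all genes, with a median of -0.05. In limma 0 passed across all genes. At an unadjusted p under 0.05 in limma 0 were lower and 1 higher, beside 6.02% and 5.25% of all genes. The higher gene was C5ar1, the C5a receptor, at 0.37 ± 0.12 (SE) and at low signals of 5.09 to 5.57. Vtn, the vitronectin gene that blocks pore insertion, changed by -0.23 and Serping1, the C1 inhibitor, by -0.19, both with the groups apart. Cd46, a membrane regulator, changed by 0.26 at signals of 6.26 to 6.59. Of 22 measured genes of the hepatocyte transcription factors and interleukin-6 signalling (of 25 listed), 11 were lower and 11 higher, with 3 lower and 1 higher at an unadjusted p under 0.05 in limma and 0 across all genes, beside the same shares of all genes. Stat3, the factor that carries the interleukin-6 signal, read 9.91 and 10.28 on the controls and 9.61 and 9.26 on the starved arrays, a change of -0.66 ± 0.19. Lifr, a receptor of the same cytokine family, changed by -1.16 ± 0.12 (adjusted p = 0.0679), and Nr1h4, the bile acid receptor, by 0.66, or 0.42 against control 1 and 0.90 against control 2. Onecut1, a liver-enriched factor, read 8.56 and 10.21 on the controls and 7.44 and 8.36 on the starved arrays, a change of -1.48 that was -0.66 against control 1 and -2.31 against control 2.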

How the data were processed

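Liver RNA of 2 control and 2 starved mice was measured on 1 array each. The authors deposited log2 signals per probe set; the submitters' processing notes name RMA and the affy package, and no versions are given in the sources. RMA aligns array distributions, so a shift common to all transcripts cannot be seen. Of 22690 probe sets, 64 array controls, 691 with several symbols and 1555 with none were left out. Entrez identifiers matched 20351 of the other 20380 to current symbols in a RefSeq table (GRCm38.p6). Groups were compared with limma 3.58.1 (lmFit, eBayes, with R 4.3.3). Tests were two-sided, with no covariate and Benjamini-Hochberg adjustment over 12393 genes. The script was tested on simulated data, where limma recovered 0.9% of changes of 0.5 log2 units, 59.7% of 1 and 96.3% of 2. A permutation test of 2 against 2 arrays cannot go below 0.333. P-values, SEs and intervals from limma reflect the spread of these mice, in part for the gene itself and in part pooled over all genes. The pooled part gives 3.71 of the 5.71 degrees of freedom. An SE is thus not the spread of that gene alone. Precision is limited by how few arrays there are. All members are named. Array values are printed for those at an unadjusted p under 0.05 and the 2 of each role with the smallest p, and for others chosen after their values were seen; of other lists, up to 4 genes with the smallest p are named. Members and lists were chosen with earlier results of these data known. Of lists not described below, platelet, neutrophil, B cell, T and NK cell, cholangiocyte, stellate and red cell markers had median changes of 0.00, -0.04, 0.05, 0.04, 0.13, -0.09 and -0.03. Alternatives covered normalization, probe set choice, removal of the lowest 40% of genes, eBayes settings, a replicate block and each array left out.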

Additional observations from a re-analysis of the deposited data

How the results depend on the processing

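No member passed an adjusted p of 0.05 in limma under any of the 11 alternatives, nor at thresholds of 0.01 or 0.10. With each array left out, the smallest adjusted p among members ran from 0.126 to 0.685. The count of lower starved means stayed between 27 and 30 of up to 36 under the same alternatives, and that of genes with the groups apart and starved lower between 24 and 27 with an array left out, against 23, while the share of all genes rose from 20.9% to between 33.7% and 37.7%. These are 2 counts added after the data were seen.

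Without an array, the count at an unadjusted p under 0.05 in limma ran from 2 to 4 for coagulation, against 7, and from 1 to 5 for complement, against 3. The coagulation median of -0.09 ran from -0.23 to -0.077 and the complement median of -0.26 from -0.36 to -0.18. Averaging a gene's probe sets put the coagulation median at -0.17. With the replicate number as a block, 5 coagulation and 3 complement genes were lower at an unadjusted p under 0.05 in limma. The share of all genes was 5.67%, and 0 passed across all genes. The deviations of same-numbered arrays had a correlation of 0.02 over genes. A value over all genes cannot exclude pairing that shows in a part of them. In either group, array 2 was the higher in 17 of 19 macrophage markers and in 2 of 18 endothelial markers. For acute phase genes it was the higher in 24 of 24 between the controls and in 12 of 24 between the starved arrays. Whether the numbers mark pairs is not settled.

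The sign switched in 10 genes, C1qb and Masp2 with main changes of -0.28 each and 8 with changes nearer to 0. With single arrays left out, the change ran from -0.078 to 0.066 for F2, -0.30 to 0.21 for Klkb1, -0.19 to 0.12 for Proc, -0.625 to 0.058 for C1qb, -0.26 to 0.11 for C1qc, -0.035 to 0.11 for C2, -0.24 to 0.016 for C8g and -0.18 to 0.28 for Masp1. After quantile normalization F2 was 0.0075 and Serpinc1 0.0001. Averaging the probe sets of a gene gave -0.18 for Masp1 and 0.013 for Masp2. In 26 of the 36 genes the sign did not switch in these alternatives. Kng1 came to 0 after quantile normalization.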
